A study of Mus musculus with 12 samples.

Results

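Open chromatin in the livers of mice given pregnenolone 16α-carbonitrile (PCN) was compared directly with that of mice given atorvastatin, with no use of the vehicle controls. The comparison takes 8 of the 12 libraries of the series, 4 labelled PCN and 4 labelled atorvastatin, chosen by their treatment label alone. All mice were wild-type C57Bl/6N males of 19 to 20 weeks on standard chow. By oral gavage they received 100 mg/kg PCN or 10 mg/kg atorvastatin for 4 days, and were then fasted for 12 h overnight. Groups held 9 to 10 mice, and the labels do not say whether a library came from a single mouse, so p-values measure only the spread between these libraries. The doses of the 2 compounds differ, and so do their chemistry and their targets.

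PCN is a synthetic steroid that activates the rodent pregnane X receptor (PXR, encoded by Nr1i2), a nuclear receptor that pairs with the retinoid X receptor on DNA and switches on genes of drug oxidation, conjugation and transport, Cyp3a11 and Cyp2b10 among the best known in mouse liver. Atorvastatin is a statin, which lowers cholesterol synthesis. Less cholesterol in the hepatocyte releases the transcription factor SREBP2, which raises the genes of sterol synthesis. ATAC-seq uses the transposase Tn5 to cut and tag accessible DNA, so counts over a promoter or enhancer measure how open it is and not how much it is transcribed.

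2 tables were used, with 43511 promoters of 25124 gene symbols and 406518 enhancer regions. Of the promoters, 11803 repeat the counts of another promoter of their gene. Overlapping enhancer regions were merged to 197766 loci with a median length of 182 bp, and the region with the highest mean over the 8 libraries stood for its locus. Total counts over promoters ran from 4872850.5 to 10021771.5 in the PCN libraries and from 4218336.5 to 15336000.5 in the atorvastatin libraries. Levels below are CPM, the counts of a library over the features tested, brought to a common library size with TMM scaling. At the loci tested, 3 counts were worth between 1.46 CPM in atorvastatin 2 and 7.31 CPM in atorvastatin 1, so a locus at 30 CPM rests on few counts in the shallow libraries.

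The library labelled atorvastatin replicate 3 stood apart from the other 7. Its correlation with them was 0.718 to 0.762 over promoters and 0.297 to 0.357 over loci (Pearson r of log2 CPM). Without it, correlations over promoters were 0.949 to 0.97 within PCN, 0.949 to 0.974 within atorvastatin and 0.932 to 0.978 between the groups. Values between the groups thus spanned the range of those within them and reached somewhat lower and higher. Their median was 0.964, against 0.959 within PCN and 0.959 within atorvastatin. Over loci, the median correlation between the groups, 0.725, was also no lower than the 0.7 within PCN and the 0.677 within atorvastatin. In atorvastatin 3 the less open 50% of promoters took 26.8% of the promoter counts, against 8.65% to 16.8% in the other 7 libraries. Each result is therefore given with all 8 libraries and with that library left out, here called the fit of 7.

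**Figure D1:**
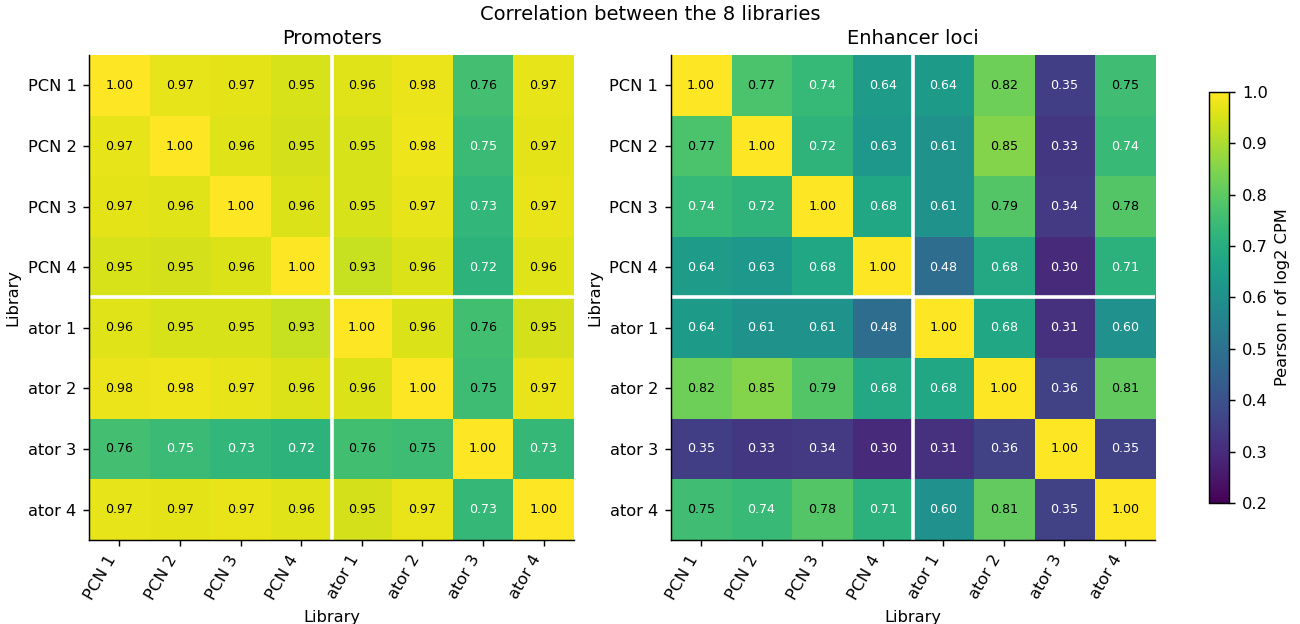
Pearson correlation of log2 CPM between each pair of the 8 libraries, over promoters (left) and enhancer loci (right); white lines separate PCN from atorvastatin (ator). The row of atorvastatin 3 holds the lowest values, 0.718 to 0.762 over promoters and 0.297 to 0.357 over loci, while PCN and the other atorvastatin libraries do not form separate blocks.

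No promoter and no enhancer locus differed between PCN and atorvastatin at an adjusted p under 0.05 (quasi-likelihood test of edgeR, p-values adjusted by the Benjamini-Hochberg method). With 8 libraries, 0 of 41596 promoters (0.0%) and 0 of 35598 loci (0.0%) passed. With 7 libraries, 0 of 41709 promoters (0.0%) and 0 of 40818 loci (0.0%) passed. At an unadjusted p under 0.05, 727 promoters (1.75%) differed with 8 libraries, 86 with PCN higher (0.207%) and 641 with PCN lower (1.54%). With 7 libraries the count was 228 (0.547%), split into 104 higher (0.249%) and 124 lower (0.297%). The corresponding loci numbered 542 (1.52%) with 8 libraries, 140 higher (0.393%) and 402 lower (1.13%), and 997 (2.44%) with 7, 522 higher (1.28%) and 475 lower (1.16%). Scaling each library along its openness (loess offsets) changed the split with 8 libraries to 365 higher and 704 lower promoters, and to 143 higher and 1296 lower loci, while the median log2 difference over loci moved from 0.075 to -0.049. DESeq2 also called 0 promoters and 0 loci, with 686 promoters and 767 loci at an unadjusted p under 0.05 in the 8 libraries and 163 and 667 in the 7. Of the promoters that edgeR gave an unadjusted p under 0.05, 72 were in both sets, 9.9% of the set of 8 libraries and 31.58% of the set of 7. With the replicate number as a block in the fit of 7, again 0 promoters and 0 loci were called, with 1457 promoters and 1883 loci at an unadjusted p under 0.05.

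The intervals show what size of difference the data allow. With 7 libraries the 95% interval of the log2 difference lay within a 2-fold change in either direction for 70.5% of promoters and 34.3% of loci. With 8 libraries those shares were 59.8% and 14.9%. The median standard error fell with the library left out, from 0.285 to 0.243 on the log2 scale for promoters and from 0.559 to 0.438 for loci. Intervals at the other loci also hold differences beyond 2-fold. In the fit of 7 over promoters edgeR shared the spread across promoters almost fully (208545 degrees of freedom), so those intervals barely reflect a promoter's own spread.

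The direction of the promoter differences followed openness only while atorvastatin 3 was included. When promoters were put into 4 groups of equal size by mean level, the least open group of the 8 libraries had a median log2 difference of -0.43 and the most open one of 0.15. With 7 libraries the same medians were 0.07 and -0.004. The log2 differences of the 2 fits correlated with r = 0.361 over 41596 promoters and 0.674 over 35598 loci, a description only, since 7 libraries are shared.

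**Figure D2:**
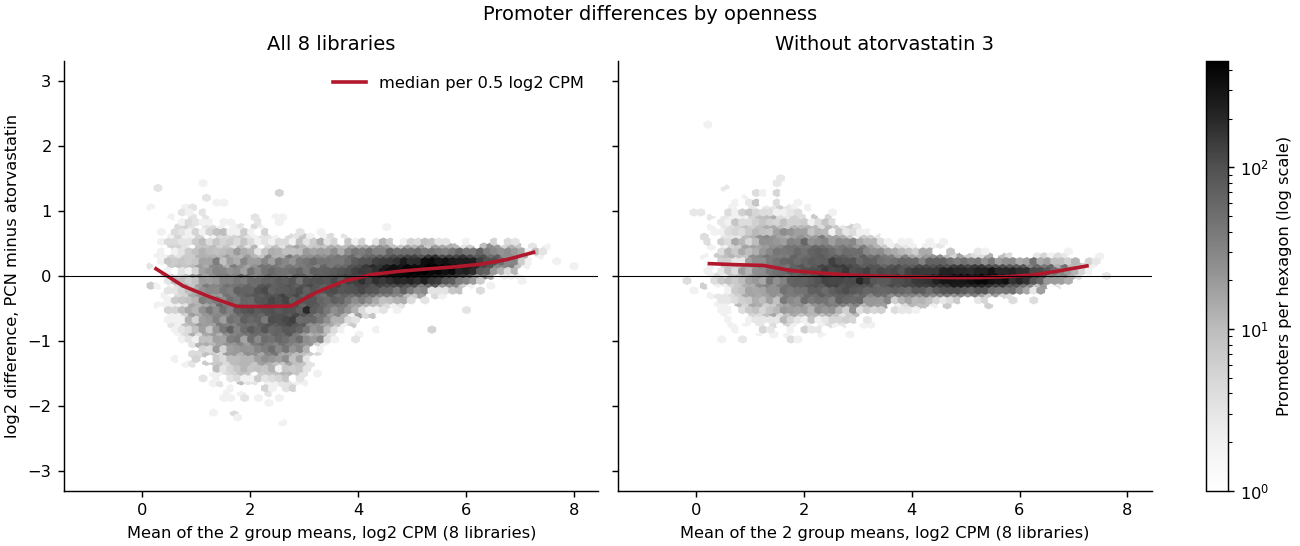
Log2 difference (PCN minus atorvastatin, held within 3 on either side) of each promoter against the log2 of the mean of its 2 group means in CPM, with all 8 libraries (left) and without atorvastatin 3 (right); shade counts promoters on a log scale and the red line is the median per bin. The slope of the left panel, from -0.43 in the least open group to 0.15 in the most open, is much smaller in the right panel (0.07 and -0.004).

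Short motifs linked to nuclear receptors and to SREBP2, which do not show binding, were marked in 3 promoter sequences. They are the promoters of Cyp3a11, the leading PXR target, of Hmgcs1, the HMG-CoA synthase driven by SREBP2, and of AU019990, a long noncoding RNA with the smallest p among the promoters that were higher with PCN over 8 libraries. Each is the 250 bases before the gene's start, 5′ to 3′ on the gene's strand, from RefSeq on GRCm38.p6. Capitals mark the nuclear receptor half-sites AGTTCA and AGGTCA and the core of the sterol regulatory element, CACCCCAC, on either strand. Cyp3a11 lies at chr5:145879855-145880104 on the minus strand, Hmgcs1 at chr13:119690101-119690350 on the plus strand and AU019990 at chr2:132597946-132598195 on the plus strand.
Cyp3a11: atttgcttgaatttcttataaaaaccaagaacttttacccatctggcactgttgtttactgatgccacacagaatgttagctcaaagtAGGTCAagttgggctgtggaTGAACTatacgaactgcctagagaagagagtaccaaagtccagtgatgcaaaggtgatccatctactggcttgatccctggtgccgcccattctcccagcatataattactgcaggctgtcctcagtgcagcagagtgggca
Hmgcs1: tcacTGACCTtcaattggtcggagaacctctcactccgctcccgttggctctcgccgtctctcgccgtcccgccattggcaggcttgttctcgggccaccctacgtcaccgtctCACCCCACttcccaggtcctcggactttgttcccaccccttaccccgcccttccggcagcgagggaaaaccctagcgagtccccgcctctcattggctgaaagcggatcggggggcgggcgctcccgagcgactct
AU019990: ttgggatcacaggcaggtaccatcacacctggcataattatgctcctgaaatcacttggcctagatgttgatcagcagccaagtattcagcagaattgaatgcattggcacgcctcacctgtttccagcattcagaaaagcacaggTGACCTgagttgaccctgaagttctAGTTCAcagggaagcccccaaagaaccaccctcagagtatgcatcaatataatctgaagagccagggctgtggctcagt
The Cyp3a11 sequence holds an AGGTCA and, shortly after it, a TGAACT, the reverse complement of AGTTCA. Over the 27025 genes with such a sequence, AGTTCA on either strand was found in 11.9%, AGGTCA in 13.8% and CACCCCAC in 2.51%. Of the 28 genes of the drug, sterol and fasting panel described below with a sequence, 4 held AGTTCA, 10 held AGGTCA and 2 held CACCCCAC, namely Hmgcs1 and Nr1i3. A direct repeat of AGTTCA spaced by 3 bases was found in 0 of these sequences, and one spaced by 4 bases in 3 of 27025. Genes with AGTTCA had a median log2 difference of -0.08 against -0.01 for those without it in 8 libraries, and of 0.03 against 0.00 in 7. Those with CACCCCAC had medians of -0.02 in 8 and 0.01 in 7 libraries, against -0.02 and 0.00 without it.

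A panel of 36 genes of drug metabolism, sterol balance and fasting was followed at the promoter, each by its most open one. With 8 libraries 26 of 36 had a log2 difference above 0, with a median of 0.07, against 49.0% of all promoters tested. With 7 libraries it was 17 of 36, with a median of -0.01, against 49.9%. None was called, and at all 36 promoters the PCN and atorvastatin libraries overlapped in CPM, with 8 and with 7 libraries; over all promoters 0.565% and 1.5% had no overlap. The 95% interval stayed within a 2-fold change for 32 of the 36 with 8 libraries and for 35 with 7.

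Among the PXR targets, Cyp3a11, the main steroid and drug oxidase of the mouse Cyp3a family, had promoter levels of 12.6, 21.8, 23.2 and 31.8 CPM with PCN. With atorvastatin they were 16.1, 16.2, 38.1 and 17.4 CPM. The library that stood apart held the highest value of all 8, and without it 3 of 4 PCN libraries lay above every atorvastatin library. The log2 difference was 0.01 ± 0.27 (SE, n = 4 and 4; 95% interval -0.54 to 0.56; edgeR adjusted p = 0.997). Without atorvastatin 3 it was 0.40 ± 0.18 (n = 4 and 3; 0.04 to 0.75), with an unadjusted edgeR p of 0.028 and an adjusted p of 1.0. It was the only panel promoter with an unadjusted p under 0.05 in that fit, and none was in the fit of 8. The interval of the fit of 7 barely reflects this promoter's own spread, in which PCN 1 (12.6 CPM) lay below every atorvastatin library.

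Cyp2b10, an oxidase induced through both the constitutive androstane receptor CAR and PXR, had low promoter levels in every library. They were 8.76, 8.41, 5.69 and 6.72 CPM with PCN and 9.98, 9.01, 9.84 and 7.56 CPM with atorvastatin. The PCN values were mostly the lower ones, with a log2 difference of -0.30 ± 0.39 with 8 and -0.26 ± 0.34 with 7 libraries. Of the other cytochromes, Cyp2c29 stood at 0.31 ± 0.35 with 8 and 0.16 ± 0.28 with 7, Cyp3a13 at 0.10 and 0.04 and Cyp3a25 at 0.16 and 0.09. Cyp2c55, a Cyp2c member inducible by PXR, stood at 0.01 and -0.12. Por, the reductase that feeds electrons to every microsomal cytochrome P450, and Alas1, which starts the synthesis of their haem, stood at 0.02 and -0.12 with 8 libraries and at -0.09 and -0.27 with 7.

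No promoter of the conjugation and transport genes passed the test. Ugt1a1, which glucuronidates bilirubin, had promoter levels of 107.5, 120.7, 93.7 and 109.4 CPM with PCN and 89.6, 124.7, 103.5 and 107.9 CPM with atorvastatin, a log2 difference of 0.02 ± 0.31 with 8 libraries and -0.01 ± 0.29 with 7. The PCN libraries lay inside the range of the atorvastatin libraries. Abcc2, the canalicular exporter of conjugates, stood at 0.27 ± 0.21 with 8 and 0.24 ± 0.17 with 7 libraries. Slco1a4, an uptake transporter of organic anions, stood at 0.24 ± 0.29 and -0.01 ± 0.22. Abcb1a, a drug efflux pump, had the widest interval of the panel (-0.80 to 2.14 with 8 libraries) at levels of 0.553 to 3.26 CPM.

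The receptors themselves did not pass the test either. Nr1i2 promoter levels were 28.7, 30.2, 44.4 and 39.7 CPM with PCN and 26.5, 30.5, 24.6 and 39.4 CPM with atorvastatin, with a log2 difference of 0.24 ± 0.21 with 8 and 0.13 ± 0.17 with 7 libraries. Nr1i3, which encodes CAR, stood at -0.04 ± 0.24 and -0.21 ± 0.20. Rxra, the shared partner of both receptors, stood at -0.03 ± 0.29 and -0.20 ± 0.26, and Nr0b2, the corepressor SHP, at 0.27 ± 0.28 and 0.21 ± 0.25.

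On the statin side, Hmgcs1, whose promoter carries the CACCCCAC shown above, had 51.7, 46.4, 88.6 and 62.4 CPM with PCN and 60.5, 59.96, 27.98 and 52.9 CPM with atorvastatin. Its log2 difference moved from 0.31 ± 0.28 to 0.10 ± 0.23 when atorvastatin 3, the lowest library, was left out. Srebf2, which encodes SREBP2, stood at 0.29 ± 0.27 and 0.09 ± 0.22, and Sqle, the squalene epoxidase, at 0.09 ± 0.27 and -0.08 ± 0.22. Insig1, a brake on SREBP processing, stood at 0.31 ± 0.31 and 0.13 ± 0.28. For each of these 4 sterol promoters the interval in the fit of 7 lay within a 2-fold change.

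Bile acid and fasting genes gave the same picture. Cyp7a1, the rate-limiting enzyme of bile acid synthesis, stood at 0.16 ± 0.28 with 8 and 0.19 ± 0.23 with 7 libraries, and Cyp8b1, which sets the cholic acid share, at -0.07 ± 0.20 and -0.13 ± 0.17. G6pc, the last step of glucose release, had a log2 difference of 0.23 in both fits, with intervals of -0.26 to 0.72 and -0.13 to 0.58. Hamp, the gene of the iron hormone hepcidin, had 46.1, 68.1, 52.3 and 62.4 CPM with PCN and 34.3, 81.8, 48.4 and 88.3 CPM with atorvastatin, a log2 difference of -0.15 ± 0.29 with 8 and -0.28 ± 0.23 with 7 libraries. Its PCN libraries lay inside the wider atorvastatin range.

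**Figure D3:**
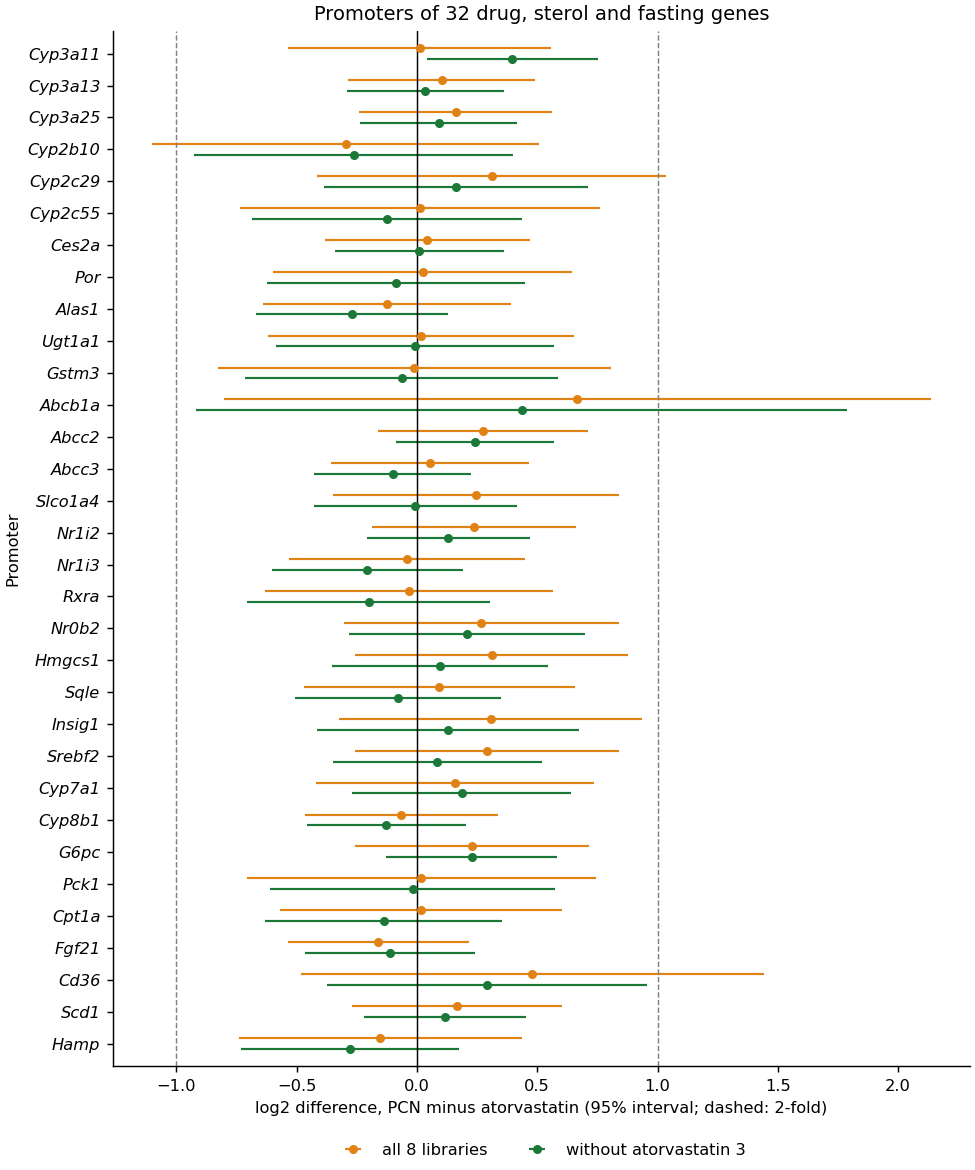
Log2 difference in promoter openness (PCN minus atorvastatin) with its 95% interval for 32 of the 36 panel genes, with all 8 libraries (orange) and without atorvastatin 3 (green); dashed lines mark a 2-fold change. All intervals cross 0 except that of Cyp3a11 in the fit of 7 (0.04 to 0.75). Intervals of the fit of 7 barely reflect a promoter's own spread.

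With the replicate number as a block in the fit of 7, none of the panel promoters passed either (lowest edgeR adjusted p = 0.999), but 6 of 36 changed sign and 3 had an unadjusted p under 0.05 against 1 without the block. Those 3 were Cyp3a11 at 0.37 ± 0.16, Abcc2 at 0.42 ± 0.15 and G6pc at 0.38 ± 0.14. Hmgcs1 moved to -0.12 ± 0.15, Srebf2 to -0.01 ± 0.15, Sqle to -0.25 ± 0.15 and Nr1i2 to 0.03 ± 0.14. Of the 18 promoters and 16 loci of smallest p described below, none changed sign with the block. They were picked for a small p in the same libraries, so this is a description only.

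Around the same genes, 205 tested loci of 33 panel genes lay within 50 kb with 8 libraries, 114 of them above 0, and 221 loci of 34 genes with 7 libraries, 122 above 0. Over all loci tested the shares above 0 were 56.1% and 50.5%. The loci of 5 of these genes, Cyp3a11, Cyp3a25, Nr1i2, Insig1 and Hmgcs1, are given next, picked after their values were seen. A locus 24821 bp from Cyp3a11, at chr5:145904675-145904807, had 19.1, 29.5, 37.6 and 31.5 CPM with PCN and 21.9, 17.5, 17.8 and 8.65 CPM with atorvastatin. 3 of its 4 PCN libraries were above all atorvastatin libraries, and its log2 difference was 0.86 ± 0.45 with 8 and 0.96 ± 0.40 with 7 libraries (edgeR unadjusted p = 0.0754 and 0.0213, adjusted p = 1.0 in both). The 7 loci of Cyp3a11 as a set were mixed, with 4 above 0 in either fit. A locus inside the gene, at chr5:145861889-145862071, turned on atorvastatin 3, where it had 48.9 CPM and whose width is its only one. It stood at -0.31 ± 0.95 with 8 libraries and 1.67 ± 0.80 with 7 (edgeR unadjusted p = 0.754 and 0.0432). Of Cyp3a25, 5 of 7 loci were above 0 with 8 libraries and 7 of 8 with 7.

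Within the Nr1i2 gene body, a locus at chr16:38287455-38287601 had 46.8, 31.0, 56.4 and 74.0 CPM with PCN and 14.6, 36.5, 25.6 and 25.2 CPM with atorvastatin. The groups overlapped through PCN 2 and atorvastatin 2, and the log2 difference was 0.97 ± 0.38 with 8 and 0.89 ± 0.33 with 7 libraries (edgeR unadjusted p = 0.0228 and 0.00942, adjusted p = 1.0 in both). Its neighbour at chr16:38286767-38286913 pointed the other way, at -0.55 ± 0.33 and -0.70 ± 0.30 (edgeR unadjusted p = 0.12 and 0.0249, adjusted p = 1.0 in both). Of the loci of this receptor gene, 7 of 8 were above 0 with 8 libraries and 5 of 9 with 7. Of the 9 loci of Insig1 tested, 5 were above 0 with 8 libraries and 3 with 7, and the 3 loci of Hmgcs1 were above 0 in both fits (0.26 to 0.76 and 0.04 to 0.60).

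The promoters of smallest p with PCN higher over 8 libraries were those of AU019990, Fmo1, Fam50b, Adipoq and Lenep, none past the threshold. AU019990 had 28.5, 31.2, 29.9 and 27.3 CPM with PCN and 13.2, 25.1, 9.62 and 20.9 CPM with atorvastatin, with no overlap. Its log2 difference was 0.74 ± 0.23 with 8 and 0.51 ± 0.17 with 7 libraries (edgeR adjusted p = 0.983 and 1.0). Fmo1, a flavin-containing monooxygenase of drug metabolism (gene at chr1:162829561-162866610), had 19.8, 22.2, 26.4 and 28.7 CPM with PCN and 15.8, 16.7, 16.5 and 18.7 CPM with atorvastatin. Every PCN library was above every atorvastatin library, with and without atorvastatin 3, at 0.52 ± 0.19 and 0.48 ± 0.18 (edgeR unadjusted p = 0.0103 and 0.00611, adjusted p = 0.983 and 1.0). Over all promoters, 0.356% with 8 libraries and 0.913% with 7 had no overlap with PCN higher. Adipoq, the gene of the fat cell hormone adiponectin, stood at 0.74 ± 0.28 and 0.50 ± 0.19, Fam50b at 0.56 ± 0.21 and 0.40 ± 0.17, and Lenep, a gene first described in the lens, at 0.77 ± 0.29 and 0.66 ± 0.23.

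The promoters of smallest p with PCN lower over 8 libraries rested largely on a single library. Ankdd1b had 2.81, 2.05, 1.78 and 1.83 CPM with PCN and 3.90, 2.11, 32.9 and 2.41 CPM with atorvastatin, where the third value is atorvastatin 3. Its log2 difference was -2.27 ± 0.71 with 8 libraries and -0.37 ± 0.61 with 7. H2-M10.6, a nonclassical MHC class I gene, moved from -1.95 to -0.55 and Dbndd2 from -1.001 to -0.51 in the same way. Shisal1 stood at -1.45 ± 0.47 and -0.77 ± 0.41, and Gm5622 at -1.99 ± 0.65 and -1.56 ± 0.62, both with no overlap in either fit, a state shared by 0.209% of promoters with PCN lower in the 8 libraries and 0.583% in the 7.

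In the fit of 7 the promoters of smallest p with PCN higher were Prss8, Arhgap27, AU019990, 4930515B02Rik and Lenep. Prss8, a membrane-anchored serine protease that activates the epithelial sodium channel, had 25.1, 25.4, 33.7 and 34.8 CPM with PCN and 12.6, 20.8, 22.7 and 25 CPM with atorvastatin. The groups did not overlap, and its log2 difference was 0.56 ± 0.17 (edgeR unadjusted p = 0.000913, adjusted p = 1.0) against 0.54 ± 0.20 with 8 libraries. 4930515B02Rik stood at 1.23 ± 0.41 in the fit of 7 and at -0.09 ± 0.53 with 8, atorvastatin 3 being its highest library at 26.0 CPM. Those with PCN lower were Bc1, Gpr25, Slc41a2, Cad and Tmem267. Cad, the enzyme that begins pyrimidine synthesis, had 24.2, 20.5, 23.0 and 19.0 CPM with PCN and 27.97, 33.9, 20.8 and 28.5 CPM with atorvastatin, with no overlap only once atorvastatin 3 was left out (-0.48 ± 0.17). Bc1, a short noncoding RNA, stood at -0.58 ± 0.17, Gpr25 at -0.53 ± 0.17, and Slc41a2, a magnesium transporter, at -0.52 ± 0.18.

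limma-voom called 1 promoter where edgeR called none, with sample weights over 8 libraries and without them over 7. It was that of Gm20594, with 50.6, 14.4, 51.3 and 28.9 CPM with PCN and 60.9, 2.67, 24.1 and 23.8 CPM with atorvastatin. The highest and the lowest library were both atorvastatin, so the groups overlapped fully. Its log2 difference was 1.14 ± 0.18 in the first of these fits (limma adjusted p = 5.78e-06) and 1.57 ± 0.19 in the second (limma adjusted p = 2.83e-12), against 0.44 in both edgeR fits.

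Loci entered the test when enough libraries (4 with 8 libraries, 3 with 7) reached the level of 10 counts at the median depth, here called the entry level. A locus that entered through the group where it is high had to differ, and the direction at such a locus, or at one delimited by regions of 1 group only, comes with that choice. This holds for many of the loci below, which are given as descriptions.

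The locus of smallest p over 8 libraries was on chromosome 9, at chr9:66666301-66666483, 45813 bp from Car12, which encodes a membrane carbonic anhydrase. It had 10.6, 8.85, 5.93 and 7.40 CPM with PCN and 39.0, 31.7, 57.8 and 25.9 CPM with atorvastatin. None of the 4 PCN libraries reached the entry level, so the locus was tested through the atorvastatin libraries alone, and its regions have widths of atorvastatin libraries only. Its log2 difference was -2.21 ± 0.46 with 8 libraries and -1.92 ± 0.43 with 7 (edgeR adjusted p = 1.0 and 0.736). Over all loci, 0.775% had no overlap with PCN lower in the 8 libraries and 2.06% in the 7.

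The other loci of smallest p with PCN lower over 8 libraries lay 40188 bp from Mdga1 and inside the gene bodies of Itpkb, Prkce and Gpt2. The locus in Itpkb, an inositol trisphosphate kinase, had 19.1, 25.1, 17.8 and 31.5 CPM with PCN and 51.2, 50.6, 62.3 and 44.7 CPM with atorvastatin. It stood at -1.18 ± 0.33 with 8 and -1.09 ± 0.32 with 7 libraries, so atorvastatin 3 mattered little there. All 4 PCN libraries reached the entry level at that locus, but its regions have widths of 4 atorvastatin libraries and of a vehicle library, and none of PCN. It mattered more inside Prkce, a protein kinase C, where that library held 109.0 CPM and the others of its group 16.6 to 31.0. The value there moved from -2.01 ± 0.59 to -1.11 ± 0.43. The locus in Gpt2, an alanine transaminase of the liver, moved from -1.97 ± 0.59 to -1.34 ± 0.51. It has widths of atorvastatin 1 and 3 only, and 1 PCN library reached the entry level there against all 4 atorvastatin libraries.

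Loci with PCN higher had as nearest genes Gm36323 (144886 bp away), Lpp (169676 bp), Phlda1 (91182 bp), Hhex (2108 bp) and Bcl6 (132067 bp). The first, at chr3:91483539-91483677, had 30.8, 35.4, 41.5 and 22.2 CPM with PCN and 14.6, 8.76, 8.90 and 9.37 CPM with atorvastatin, and stood at 1.69 ± 0.44 with 8 and 1.70 ± 0.41 with 7 libraries (edgeR adjusted p = 1.0 in both). The locus 2108 bp from Hhex, a homeobox gene of liver development, had 51.1, 50.1, 47.5 and 88.8 CPM with PCN and 24.4, 27.3, 17.8 and 37.5 CPM with atorvastatin, at 1.12 ± 0.35 and 0.93 ± 0.31. The Phlda1 and Lpp loci have widths of PCN libraries only. At the Gm36323 locus 1 atorvastatin library reached the entry level, at the Lpp, Phlda1 and Bcl6 loci 2 and at the Hhex locus 3, against all 4 PCN libraries at each. In each of these 5 the groups did not overlap, as at 1.56% of all loci with PCN higher over 8 libraries and 2.3% over 7 (2.34% and 4.37% in either direction).

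2 of the 5 lay in the same intergenic stretch of chromosome 16, between Bcl6, a transcriptional repressor, and Lpp. At chr16:24120933-24121067, 132067 bp from Bcl6, levels were 37.2, 41.3, 25.7 and 37.0 CPM with PCN and 9.75, 19.0, 3.34 and 13.0 CPM with atorvastatin. At chr16:24223556-24223674, 169676 bp from Lpp, they were 26.6, 47.2, 27.7 and 29.6 CPM with PCN and 7.31, 13.6, 12.2 and 10.8 CPM with atorvastatin. The log2 differences were 1.57 ± 0.50 and 1.52 ± 0.44 with 8 libraries, and 1.22 ± 0.37 and 1.496 ± 0.40 with 7. The direction at the Lpp locus comes with its PCN widths. The stretch was looked at because of these 2 loci, so the counts over it, which include both, are a description. From chr16:23992297 to 24305684, 24 of 31 loci were above 0 with 8 libraries (median 0.35) and 29 of 33 with 7 (median 0.30). Most of them were above 0 by less than their standard error. Over all loci tested 56.1% and 50.5% were above 0. Several other loci of the stretch also have widths of PCN libraries only, and their direction comes with that choice.

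In the fit of 7, 3 neighbouring loci just beyond the gene body of Anxa3, a calcium-dependent phospholipid-binding protein, were among the 5 of smallest p with PCN lower. They lay 673, 855 and 1217 bp from the gene. The first, at chr5:96846641-96846787, had 10.6, 13.3, 9.89 and 5.55 CPM with PCN and 34.1, 30.7 and 44.7 CPM in atorvastatin 1, 2 and 4. Atorvastatin 3 had 0.0 CPM there, where 3 counts would be 3.34 CPM. Without that library the groups did not overlap, at -1.86 ± 0.40 (edgeR unadjusted p = 2.88e-05, adjusted p = 0.736). With it they overlapped, at -1.45 ± 0.82. The second and the third stood at -1.69 ± 0.37 and -1.27 ± 0.29 with 7 libraries and at -1.31 ± 0.69 and -0.97 ± 0.47 with 8, and another locus 1458 bp from the gene at -0.63 ± 0.51 with 7. Loci this close can share fragments, so they are not independent.

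A locus 1290 bp from Ass1, an enzyme of the urea cycle, also had its lowest level in atorvastatin 3. It had 9.57, 8.85, 9.89 and 7.40 CPM with PCN, 19.5, 31.7 and 29.6 CPM in atorvastatin 1, 2 and 4, and 0.0 CPM in atorvastatin 3, and stood at -1.61 ± 0.43 with 7 and -1.18 ± 0.82 with 8 libraries. In the fit of 7 it entered through the 3 atorvastatin libraries, with 1 PCN library at the entry level. At the first and the second Anxa3 locus 2 PCN libraries reached it, and at the third all 4. On the side of PCN, loci inside Sdccag8 and 10043 bp from Met, the hepatocyte growth factor receptor gene, entered the test only in the fit of 7. At both, 3 PCN libraries and none of atorvastatin reached the entry level, and neither has a width of an atorvastatin library. The Met locus had 23.4, 8.85, 16.8 and 22.2 CPM with PCN and 2.44, 3.90 and 3.60 CPM in atorvastatin 1, 2 and 4, at 2.28 ± 0.61. Atorvastatin 3 had 8.90 CPM there, above the lowest PCN library.

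**Figure D4:**
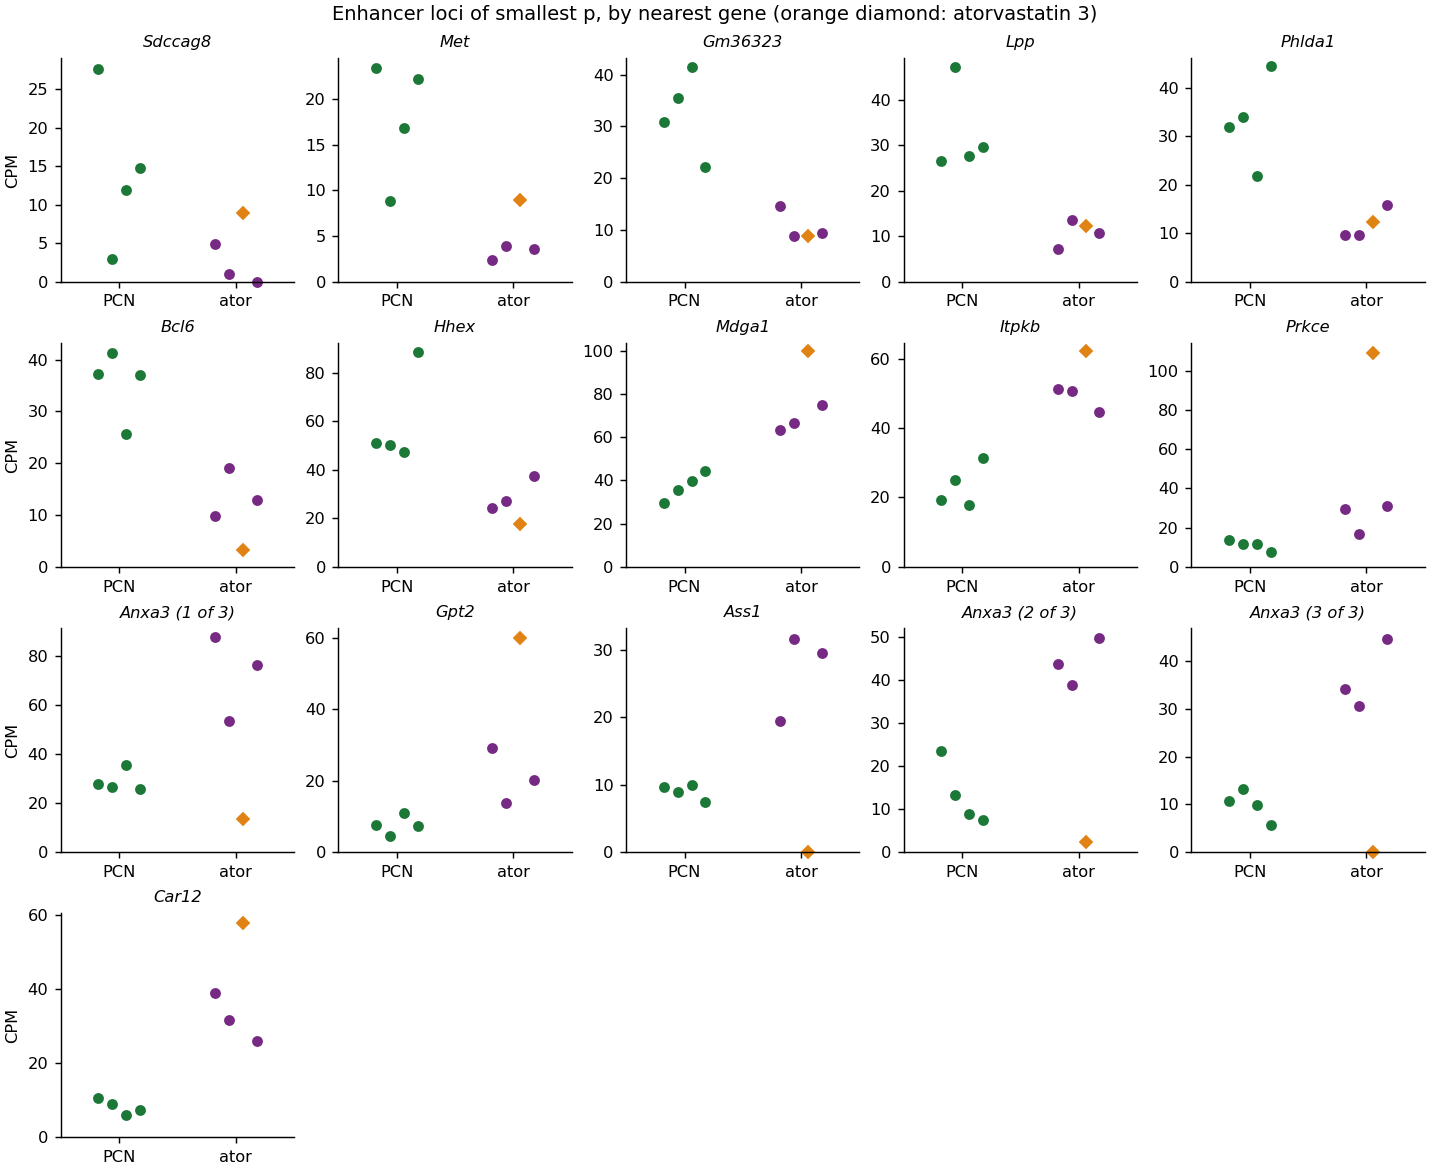
CPM of each library at the 16 enhancer loci of smallest p in either fit, titled by the nearest gene and ordered by log2 difference in the fit of 7; green points are PCN, purple points atorvastatin 1, 2 and 4, and orange diamonds atorvastatin 3. At the Car12 locus all atorvastatin libraries (25.9 to 57.8) are above all PCN libraries (5.93 to 10.6), none of which reached the entry level, while at the Anxa3 and Ass1 loci atorvastatin 3 is at or below the PCN libraries.

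The way the regions were delimited moved with these differences. The deposited regions have 12 main widths, and each width has its highest mean CPM in a different one of the 12 libraries. The 182 bp width, highest in atorvastatin 3 (5.04 CPM against a median of 0.834 in the others), makes up 24.8% of regions. Of the 197766 loci, 90409 (45.7%) hold that width alone. With 8 libraries, 1171 tested loci had the 182 bp width and no other width of a treated library, with a median log2 difference of -0.83, and all 76 of them with an unadjusted p under 0.05 had PCN lower. With 7 libraries, the 2386 loci with widths of PCN libraries and none of an atorvastatin library had a median of 0.34, and all 128 with an unadjusted p under 0.05 had PCN higher. The 2416 with widths of atorvastatin libraries and none of PCN had a median of -0.34, and all 98 such loci had PCN lower. Among the 33785 loci with widths of both the median was 0.00, with 375 higher and 360 lower. The part that this selection plays in the differences at single loci was not tested.

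Gene lists gave no called promoter or locus, and their medians were small. The 34 genes of drug oxidation linked to PXR and CAR had 22 promoters above 0 in both fits, with medians of 0.08 and 0.08. Over all genes 45.6% of promoters were above 0 with 8 libraries and 50.9% with 7 (medians -0.04 and 0.00). Scaling by library totals turned the median of the drug oxidation list with 8 libraries to -0.01. Their members of smallest p with 8 libraries were Aldh1a1, a retinaldehyde dehydrogenase, at 0.56 ± 0.25, and Cyp3a41b, at -1.19 ± 0.73 on 0.611 to 8.30 CPM, a gene with a near-identical copy beside it, so that its counts are uncertain. At loci within 50 kb of these genes 69 of 108 were above 0 with 8 libraries (median 0.18) and 80 of 126 with 7 (median 0.12). Over all loci within 50 kb of a gene the shares were 55.8% and 50.1% (medians 0.07 and 0.00).

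The counts above 0 of the lists that follow stand beside shares of 45.6% with 8 libraries and 50.9% with 7 over all genes. With 8 libraries the most open of the 4 openness groups of promoters had a median of 0.15 and a lower quartile of 0.06. Most promoters of that group were thus above 0. The conjugation genes had 20 of 28 promoters above 0 with 8 libraries and 16 of 28 with 7 (medians 0.14 and 0.01). Among them Gstm2, a glutathione transferase, stood at -0.41 ± 0.20 and -0.34 ± 0.18. The drug and bile acid transporters had 15 of 20 and 11 of 20 above 0, and the nuclear receptors with their cofactors 25 of 32 and 16 of 32. The 34 genes of cholesterol synthesis and SREBP2 had 25 above 0 with 8 libraries and 20 with 7 (medians 0.11 and 0.03). With loess offsets over 8 libraries the receptors had 18 of 32 above 0 (median 0.04) and the cholesterol genes 18 of 34 (median 0.007). Mvk, mevalonate kinase, stood at 0.37 ± 0.21 and 0.32 ± 0.19. Mvk had 42.3, 40.6, 54.2 and 52.0 CPM with PCN and 33.0, 46.9, 33.7 and 32.1 CPM with atorvastatin, 1 atorvastatin library lying among those of PCN.

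For several lists the number of promoters above 0 differed between the 2 fits. Over all genes 45.6% were above 0 with 8 libraries and 50.9% with 7 (47.6% and 49.5% with loess offsets). Fatty acid oxidation and ketogenesis had 24 of 35 promoters above 0 with 8 libraries and 7 of 35 with 7 (medians 0.06 and -0.08). With loess offsets, 10 of 35 were above 0 with 8 libraries and 6 of 35 with 7. Its Cyp4a10, a fatty acid hydroxylase driven by PPARα, stood at -0.37 ± 0.21 and -0.41 ± 0.19, and Acot1, a thioesterase, at -0.31 ± 0.20 and -0.40 ± 0.17. The circadian clock list had 19 of 20 above 0 with 8 libraries and 11 of 20 with 7. With loess offsets it had 5 of 20 above 0 with 8 libraries. Gluconeogenesis and fasting went from 20 to 15 of 23, iron and hepcidin from 13 to 5 of 20 (11 of 20 with loess offsets in 7 libraries), and bile acid synthesis from 18 to 14 of 21. Acute phase promoters went from 16 to 11 of 23, while 21 of 50 loci near acute phase genes were above 0 with 8 libraries and 16 of 56 with 7 (medians -0.09 and -0.18). Lipogenesis, NRF2, stress and growth lists had medians between -0.03 and 0.12 over both fits (TMM scaling).

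Hepatocyte genes gave medians of 0.13 with 8 libraries and -0.003 with 7 for 20 core promoters. The 18 periportal genes had 15 and 13 above 0 (medians 0.14 and 0.09), and their loci within 50 kb a median of 0.29 with 8 libraries (46 of 70 above 0) and 0.22 with 7 (54 of 84). The periportal median over loci was the highest of the 25 lists in both fits, a rank read after the values were seen. Over all loci tested 56.1% were above 0 with 8 libraries and 50.5% with 7 (medians 0.075 and 0.005). The 16 pericentral genes had medians of -0.02 and -0.04 at promoters and 0.08 and 0.08 at loci. Slc13a3, a dicarboxylate transporter in that list, stood at -1.07 ± 0.39 with 8 and -0.39 ± 0.32 with 7 libraries, with 34.4 CPM in atorvastatin 3 and 7.60 to 11.5 in the others of its group.

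Promoters of marker genes of other liver cells followed atorvastatin 3, as less open promoters did in general. Over all promoters, the least open of the 4 openness groups had a median of -0.43 with 8 libraries and 0.07 with 7. The next group had -0.22 and 0.002. Over all genes, 45.6% of promoters were above 0 with 8 libraries and 50.9% with 7. In atorvastatin 3 the less open 50% of promoters took 26.8% of the promoter counts. In that library the summed promoter CPM was the highest of all 8 for all 7 such lists, 269.2 for lymphocytes against 96.5 to 159.4 elsewhere, and 169.3 for neutrophils against 62.3 to 103.7. The lymphocyte list had 4 of 20 promoters above 0 with 8 libraries and 12 of 20 with 7 (medians -0.35 and 0.10), the neutrophil list 3 and 10 of 14 (-0.52 and 0.09). The Kupffer cell and macrophage list had 4 and 9 of 18, the erythroid list 2 and 6 of 13 and the cholangiocyte list 6 and 7 of 15. Stellate cell and fibroblast markers had 1 of 22 above 0 with 8 libraries and 6 of 22 with 7 (medians -0.36 and -0.19), and liver endothelial markers 3 and 5 of 18 (-0.32 and -0.14). With loess offsets over 8 libraries the lymphocyte and neutrophil medians turned positive (11 of 20 above 0, median 0.02, and 9 of 14, median 0.05). On that scale the Kupffer list had 8 of 18 above 0 (median -0.02) and the stellate and endothelial medians were -0.15 and -0.15. Summed stellate promoter levels were 218.6, 195.5, 167.9 and 150.4 CPM with PCN and 259.3, 167.7, 310.5 and 178.3 CPM with atorvastatin, so the groups overlapped. In bulk liver, fewer cells of a type and less openness per cell cannot be told apart, and the part of cell composition in the other results was not tested. The part that the shift of all less open promoters plays in these lists was not tested either.

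**Figure D5:**
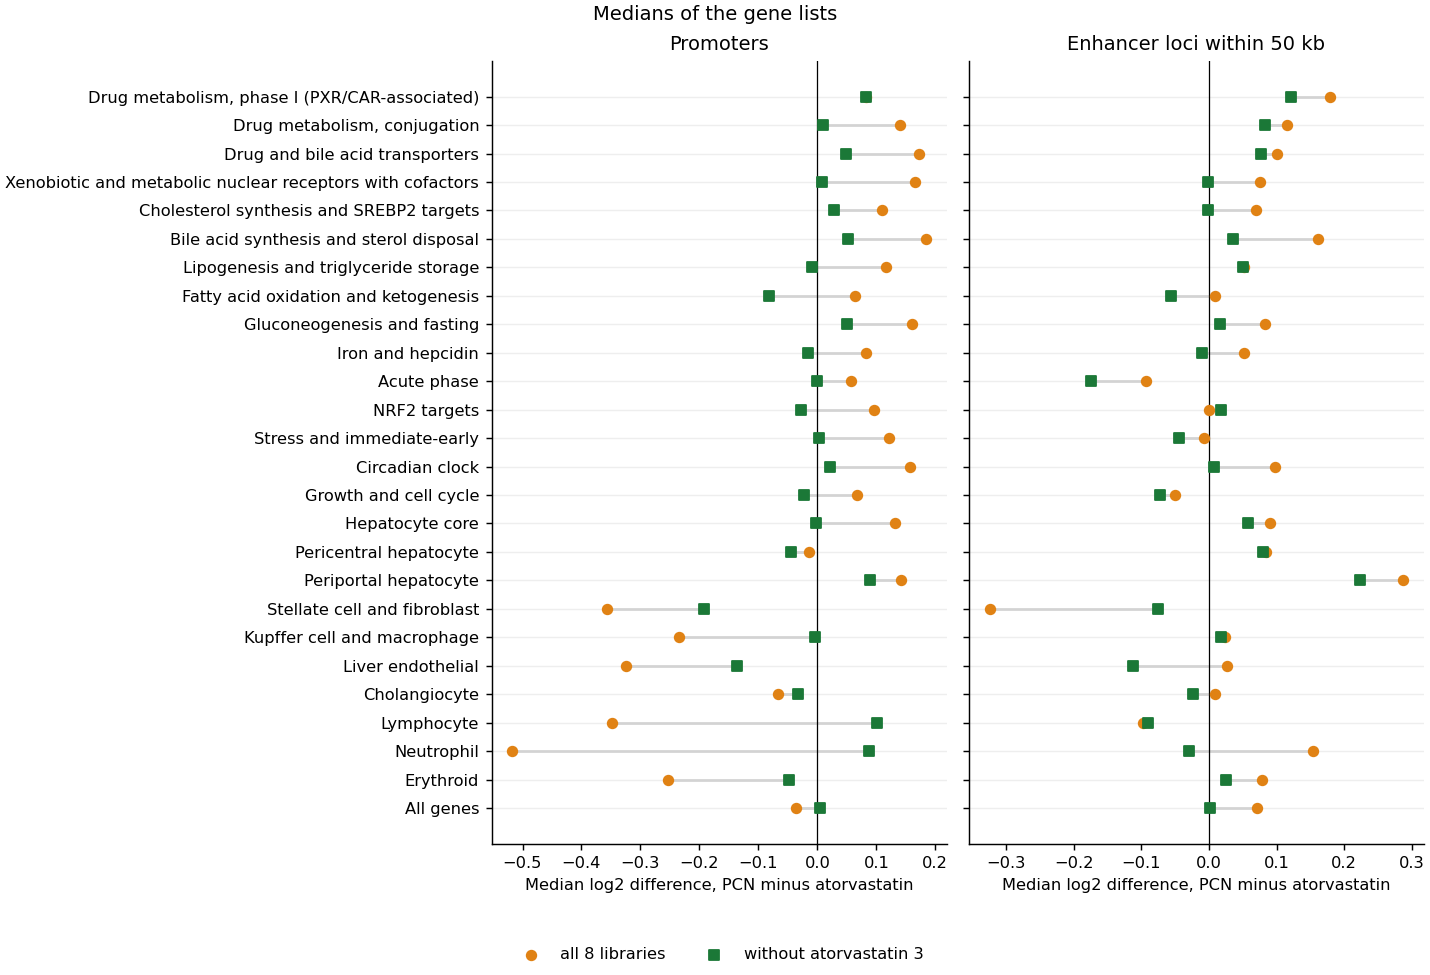
Median log2 difference (PCN minus atorvastatin) of each gene list over promoters (left) and over enhancer loci within 50 kb (right), with all 8 libraries (orange circles) and without atorvastatin 3 (green squares); a grey line joins both. Promoter medians of the non-hepatocyte lists, down to -0.52 with 8 libraries, lie closer to or above 0 with 7 (TMM scaling). With loess offsets and 8 libraries the lymphocyte and neutrophil medians are 0.02 and 0.05. The least open group of all promoters had a median of -0.43 with 8 libraries. The periportal loci have the highest median in both fits (0.29 and 0.22), a rank read after the values were seen. Over all loci tested the medians were 0.075 and 0.005.

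Differences at a gene's promoter and at its loci were nearly uncorrelated. Across 8928 genes the promoter's log2 difference and the median of its loci within 50 kb correlated with r = 0.084 with 8 libraries, and across 9533 genes with r = 0.027 with 7. Genes are not independent replicates and both values come from the same libraries, so these are descriptions.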

How the data were processed

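The authors' deposited tables hold expected counts per promoter and per enhancer region in steps of 0.5, not normalised, as judged from their range and totals. The build was mm10, per the submitters' processing notes, which also name HOMER 4.10, bedtools 2.30.0, STAR 2.7.9a and Trimmomatic with no roles; how reads were counted, shifted or filtered is not given in the sources used here. Per the labels' protocols, 100000 nuclei from 100 to 160 mg of frozen liver were tagmented for 45 min at 37 °C. A pravastatin group is not analysed here.

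Counts were rounded to whole numbers. Regions overlapping by at least 1 bp were merged to loci. Promoters and loci were fitted separately with edgeR 4.0.16 in R 4.3.3 (group only, TMM, quasi-likelihood test; filterByExpr kept features by its min.count of 10 and min.total.count of 15), and p-values were adjusted over all features (Benjamini-Hochberg, threshold 0.05). SE is the log2 difference over the square root of F; log2 CPM used a prior count of 2. Loci went to the nearest protein-coding gene body (GRCm38.p6) and into lists within 50 kb. Floors of 3 counts and intervals cover counting error or spread between libraries only. The scripts were tested on simulated counts, with less spread between libraries than in the data and no library standing apart. That checks the scripts and not the results.

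The comparison, the lists and the leaving out of atorvastatin 3 were chosen with earlier results of these data known. Since none passed the threshold, named features are the 5 of smallest p per direction in each fit, the panel genes, and the 2 members of smallest p of a list. Replicate numbers come from the sample titles. Deviations of libraries with the same number correlated at 0.449, 0.091, -0.419 and 0.37 over promoters, the negative value being that of atorvastatin 3. Over loci the same 8 libraries gave 0.116, 0.148, -0.01 and 0.141, against -0.139 to 0.058 for other numbers. Without atorvastatin 3 the 3 pairs gave 0.725, 0.162 and 0.295 over promoters, and 0.175, 0.207 and 0.211 over loci. Libraries of other numbers then gave -0.597 to 0.311 over promoters and -0.196 to 0.074 over loci. Over promoters, PCN 3 with atorvastatin 4 (0.311) was thus above the same-number values of 0.162 and 0.295. Pairing is therefore uncertain over promoters, and the block is given beside the group-only model. In the fit of 7 the block lowered edgeR's common coefficient of variation between libraries from 0.236 to 0.130 over promoters and from 0.294 to 0.234 over loci. Differences of the fit of 7 are from the group-only model unless the block is named. DESeq2 1.42.0, limma 3.58.1 (voom), other scalings, filters, locus definitions and leaving out each library were the alternatives. Some panel genes are not reported here by name.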

Additional observations from a re-analysis of the deposited data

Results flagged for a closer look

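In 14 of 152 groups of 4 libraries looked at, 1 library lay far from the other 3. Its gap to the nearest, as a share of the group's range, was past Dixon's critical value. That value is set so that chance flags about 1 in 20. The groups include features named for their small p in these same libraries, so that rate is no yardstick for the count. Of the 14, 7 involve atorvastatin 3. That library had 27.39% of enhancer regions at 0, against 4.389% to 6.819% in the other atorvastatin libraries. Its promoter level was 38.05 CPM at Cyp3a11, 40.15 at Dbndd2, 32.85 at Ankdd1b, 31.96 at H2-M10.6 and 25.99 at 4930515B02Rik, each the highest of its group. At the locus in Prkce, from position 86398349 on chromosome 17, it held 109.0 CPM.

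PCN 1 was the lowest of its group at Rxra (60.61 CPM), Nr0b2 (61.06 CPM) and Cpt1a, the gate of mitochondrial fatty acid uptake (55.45 CPM). Cd36, a fatty acid translocase, had 11.73 CPM in atorvastatin 4 against 3.982 to 4.645 CPM in the others of its group. At the Gm36323 locus atorvastatin 1 was the highest of its group (14.62 CPM). The highest PCN library was PCN 2 at the Lpp locus (47.17 CPM) and PCN 4 at the Hhex locus (88.79 CPM). At these 3 loci, picked for a small p with PCN higher, every PCN library was above every atorvastatin library. All 4 PCN libraries reached the entry level there, against 1, 2 and 3 of atorvastatin. Over all loci, 1.56% had no overlap with PCN higher in the 8 libraries.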

How the results depend on the processing

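Under every alternative run with edgeR or DESeq2, 0 promoters and 0 loci were called, an adjusted p threshold of 0.1 included. limma-voom called 1 promoter (Gm20594) with sample weights over 8 libraries, and 1 without atorvastatin 3; the cause was not tested. With the replicate block, taking same-numbered libraries as pairs, 0 promoters and 0 loci were called with 8 libraries and 0 and 0 without atorvastatin 3, where 1457 promoters and 1883 loci had an unadjusted p under 0.05. Leaving out each replicate in turn gave between 0 and 0 calls. The number of features with an unadjusted p under 0.05 moved a good deal with single libraries: 727 promoters became 3337 without atorvastatin 2, 3005 without atorvastatin 4, 1485 without PCN 1, 484 without PCN 2, 440 without atorvastatin 1, 195 without PCN 3 and 160 without PCN 4, and 542 loci became 1382 without atorvastatin 2, 962 without atorvastatin 4, 339 without PCN 4 and 332 without PCN 3. Of the single promoters, loci and lists named, which were uncalled, most values stayed within their error: 1340 promoter values and 331 locus values did, and 98 and 21 moved by more. Alternatives chosen after seeing the data were 2 scalings without atorvastatin 3, promoters of identical counts entered once, and only loci of at least 2 widths without that library. Precision is limited by depth at loci, where a count of 3 is worth up to 7.31 CPM.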
